A study of Mus with 7 samples.

Results

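Cytokine mRNA decay factors are RNA-binding proteins that shorten the life of the mRNAs a macrophage makes during inflammation. The 6 genes described here were taken by symbol, for what their products are known to do, out of 31053 genes in the deposited files, with earlier results of these data known. They are the tristetraprolin family Zfp36, Zfp36l1 and Zfp36l2, the endoribonuclease genes Zc3h12a and Zc3h12c, and Rc3h1. Each UMI (unique molecular identifier) marks 1 captured RNA molecule. Levels are given as CPM, the UMIs of a gene summed over the cells of a library and scaled to a library total of 1000000 UMIs.

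Tristetraprolin, the product of Zfp36, and its relatives from Zfp36l1 and Zfp36l2 hold CCCH zinc fingers that bind AU-rich elements near the 3′ end of cytokine mRNAs. They recruit the CCR4-NOT complex, which removes the poly(A) tail, and the mRNA is then decapped and degraded. Zc3h12a encodes Regnase-1, which cuts stem-loops in mRNAs such as Il6 and Nfkbiz. After Toll-like receptor signalling, Regnase-1 is itself removed by phosphorylation-driven degradation and by cleavage through MALT1. Zc3h12c encodes a relative of Regnase-1, and Rc3h1 encodes Roquin-1, which binds stem-loops of the same kind and recruits the deadenylase. Phosphorylation downstream of the p38 kinase stabilizes tristetraprolin and lowers its activity, so the mRNA level of a decay factor and the activity of its protein are separate quantities. The libraries measured mRNA alone.

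In GRCm38.p6, the RefSeq assembly that corresponds to mm10, Zfp36 (ENSMUSG00000044786) lies on chromosome 7 from 28376784 to 28379228. Zfp36l1 (ENSMUSG00000021127) lies on chromosome 12 from 80107760 to 80113013, and Zfp36l2 (ENSMUSG00000045817) on chromosome 17 from 84183924 to 84187947. Zc3h12a (ENSMUSG00000042677) lies on chromosome 4 from 125118414 to 125127881, and Zc3h12c (ENSMUSG00000035164) on chromosome 9 from 52109569 to 52168730. Rc3h1 (ENSMUSG00000040423) lies on chromosome 1 from 160906411 to 160974976. These spans are whole genes, exons and introns together.

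The cells were FLMs, self-renewing macrophages from fetal livers of wt C57BL/6J mice, grown with 30 ng/mL GM-CSF. Con cells came from 10% FBS and had no treatment. For the other 6 libraries, cells spent 24 h in 0.25% FBS with 25 µM DHA, an omega-3 fatty acid, on 8.3 µM BSA, or with the BSA alone (Veh). They were then collected without LPS (Veh.LPS.0 and DHA.LPS.0) or after 1 h (Veh.LPS.1 and DHA.LPS.1) or 4 h (Veh.LPS.4 and DHA.LPS.4) with 20 ng/mL LPS, the bacterial agonist of Toll-like receptor 4. Con and Veh.LPS.0 differ in serum, BSA and time, which cannot be told apart. The medium was exchanged when LPS was added and was not exchanged for the cells collected at 0 h, so LPS and the exchange cannot be told apart either. Whether the new medium held DHA or BSA is not given in the sources used here, so DHA against Veh at 1 h and 4 h compares cells by their treatment before LPS, with DHA present or withdrawn. Each condition was 1 library. No difference between conditions therefore has a replicate check, no test was made, and each interval below is a 95% interval that covers counting error only.

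Kept as cells were the barcodes with more than 20000 UMIs, at least 2000 genes and under 20% mitochondrial UMIs. This left 11640 cells, from 692 in DHA.LPS.4 to 3073 in Veh.LPS.1, and 22045800 to 125717000 UMIs per library (to 6 digits). The median depth ran from 29369 to 56239 UMIs per cell, and the pair at 4 h of LPS lay near both ends, with 56239 in Veh.LPS.4 and 29631 in DHA.LPS.4. Barcodes at or over the mitochondrial limit made up 74.4% to 80.0% of each DHA library and 29.0% to 54.7% of the other 4. All 11640 cells carried at least 3 of 9 macrophage markers, whose summed level was 5817 to 7089 CPM. None carried 3 markers of any of 8 other cell types. Among these the hepatocyte list summed highest, at 5.48 to 7.71 CPM. The neutrophil list summed to 0.0571 to 6.99 CPM, with its highest value in DHA.LPS.4. At most 4 barcodes were shared by any pair of libraries. With no second cell type present, free RNA could not be measured, so the shares of cells given below have no background beside them.

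**Figure D1:**
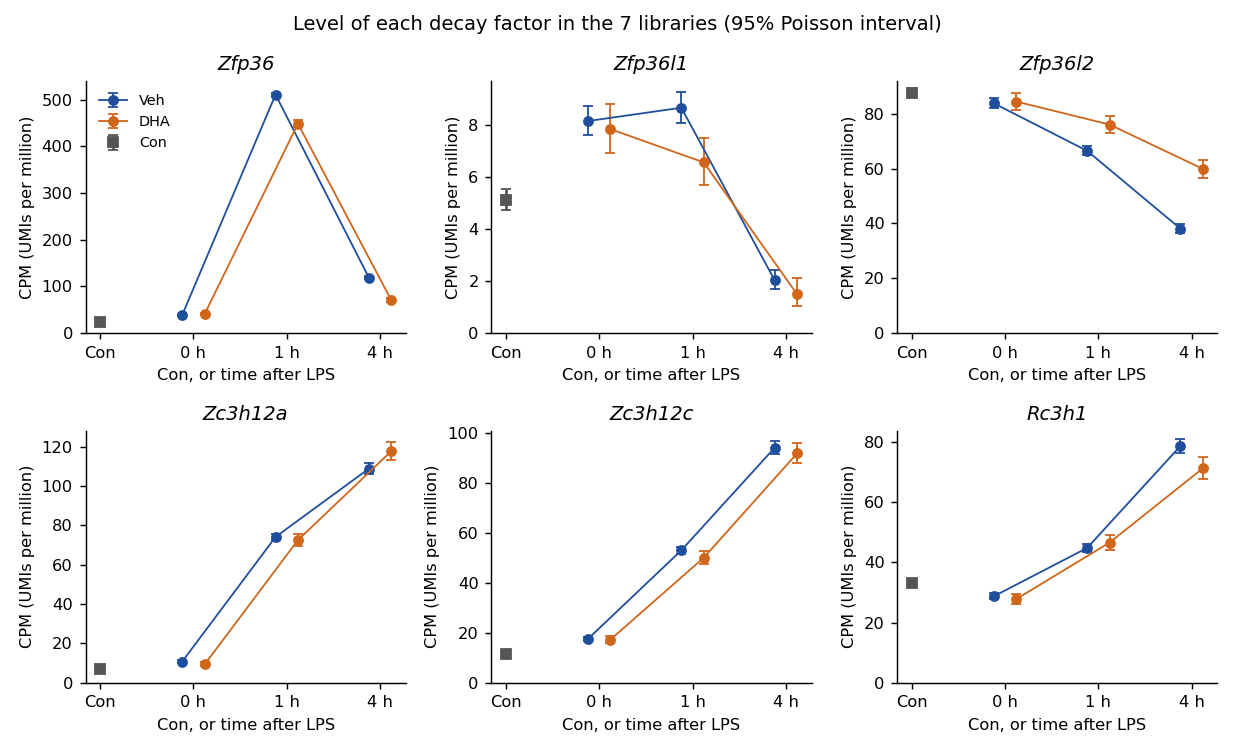
Level of each decay factor in CPM (vertical axis, linear, from 0) in Con and in the Veh and DHA libraries at 0, 1 and 4 h of LPS (horizontal axis, categories at equal steps). Points are single libraries and bars are Poisson 95% intervals of the counts. Zfp36 is highest at 1 h in both treatments, Zc3h12a, Zc3h12c and Rc3h1 are highest at 4 h, and Zfp36l1 and Zfp36l2 are lowest at 4 h.

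Zfp36 had the largest ratio of any member at 1 h of LPS and was much nearer its 0 h level again at 4 h. Its level was 24.1 CPM in Con, then 38.7, 511 and 119 CPM along the Veh series of 0, 1 and 4 h, and 40.7, 448 and 70.6 CPM along the DHA series. Both 1 h libraries stand far above the rest, and of neighbours in the order of levels only DHA.LPS.0 and Veh.LPS.0 had overlapping intervals. After 1 h of LPS the level was 13.2 times that at 0 h in Veh (interval 12.8 to 13.6) and 11.0 times in DHA (10.4 to 11.7). After 4 h it was 3.07 times in Veh (2.95 to 3.20) and 1.74 times in DHA (1.61 to 1.87). Set against 1 h, the 4 h level was 0.233 times in Veh and 0.157 times in DHA.

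Zfp36l1, which shares the AU-rich element specificity of tristetraprolin, was scarce and lowest at 4 h. Its level was 5.12 CPM in Con, then 8.16, 8.67 and 2.03 CPM along the Veh series and 7.85, 6.57 and 1.5 CPM along the DHA series. The 4 h libraries are below all others, with overlapping intervals between them, and the intervals of the 0 h and 1 h libraries overlap from each to the next in order. The ratio of 4 h to 0 h was 0.249 in Veh (0.204 to 0.302) and 0.191 in DHA (0.129 to 0.274), from only 119 and 33 UMIs at 4 h. At 1 h it was 1.06 in Veh (0.963 to 1.17) and 0.837 in DHA (0.696 to 1.01).

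Zfp36l2, the third of the family, was lower at each later hour. Its level was 87.7 CPM in Con, then 83.9, 66.5 and 38.1 CPM along the Veh series and 84.5, 76.1 and 59.9 CPM along the DHA series. The 3 libraries without LPS lie close together with overlapping neighbours, and every other neighbour in the order is apart. The ratio of 4 h to 0 h was 0.454 in Veh (0.433 to 0.476). In DHA it was 0.709 (0.664 to 0.757), within a 1.5-fold limit, and past it over all barcodes at a log2 ratio of -0.73.

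Zc3h12a, the gene of Regnase-1, was higher at 1 h and at 4 h. Its level was 6.97 CPM in Con, then 10.8, 74.1 and 109 CPM along the Veh series and 9.31, 72.5 and 118 CPM along the DHA series. The 4 LPS libraries are all at or above 72.5 CPM and the 3 others at or under 10.8 CPM. The ratio to 0 h in Veh was 6.88 at 1 h (6.45 to 7.35) and 10.1 at 4 h (9.47 to 10.8). In DHA it was 7.79 at 1 h (6.93 to 8.77) and 12.6 at 4 h (11.3 to 14.2).

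Zc3h12c had nearly the same order of libraries at lower ratios. Its level was 11.6 CPM in Con, then 17.6, 53.1 and 94.2 CPM along the Veh series and 17.3, 50.1 and 91.9 CPM along the DHA series. At each hour the intervals of Veh and DHA overlap. The ratio to 0 h in Veh was 3.02 at 1 h (2.86 to 3.19) and 5.36 at 4 h (5.08 to 5.66), with 2.90 and 5.31 in DHA.

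Rc3h1, the gene of Roquin-1, was higher with LPS at both hours, and its ratios were the smallest of the higher members except at 4 h in DHA, where that of Zfp36 was smaller. Its level was 33.1 CPM in Con, then 28.7, 44.7 and 78.6 CPM along the Veh series and 27.8, 46.5 and 71.2 CPM along the DHA series. The 4 h libraries are highest, and the pairs of 0 h and of 1 h libraries each overlap. The ratio to 0 h in Veh was 1.56 at 1 h (1.49 to 1.64) and 2.74 at 4 h (2.61 to 2.87), except that with SCTransform-corrected counts the 1 h value was within 1.5-fold, at a log2 ratio of 0.52. In DHA it was 1.67 and 2.56.

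For counts, a gene was called higher or lower where its CPM differed by more than 1.5-fold and at least 25% of cells in 1 of the libraries compared held its UMI. After 1 h of LPS in Veh, 4 of 6 members were higher and none lower, where 4.15% of all genes passing the share limit were higher and 4.24% lower (5.02% and 3.16% with TMM, an alternative scaling that centres the bulk of the genes). Zfp36 ranked 30 of 8089 genes from the highest ratio, Zc3h12a 50, Zc3h12c 105 and Rc3h1 300. In DHA the same 4 were higher at 1 h, beside 4.66% of all genes higher and 4.97% lower (5.92% and 3.34% with TMM).

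After 4 h of LPS in Veh, these 4 members were higher and Zfp36l1 and Zfp36l2 lower. Calls were common there, with 10.2% of all genes higher and 38.3% lower (21.6% and 21.1% with TMM), so 6 of 6 members called is read against a large background. In DHA the 4 were higher and Zfp36l1 alone lower, beside 9.64% of all genes higher and 33.6% lower (18.3% and 21.0% with TMM). In both treatments Zfp36l1 passed the share limit only through the 0 h library. The 1 h and the 4 h ratio of a treatment share their 0 h library. Over genes passing the share limit, the median log2 ratio of 4 h to 0 h was -0.36 in Veh and -0.29 in DHA, and 0.07 and 0.01 with TMM. Relative to the median gene, the log2 ratio in Veh was 1.98 for Zfp36, 3.70 for Zc3h12a, 2.79 for Zc3h12c and 1.82 for Rc3h1. It was -1.64 for Zfp36l1 and -0.78 for Zfp36l2, and no sign of a member turned with either scaling.

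**Figure D2:**
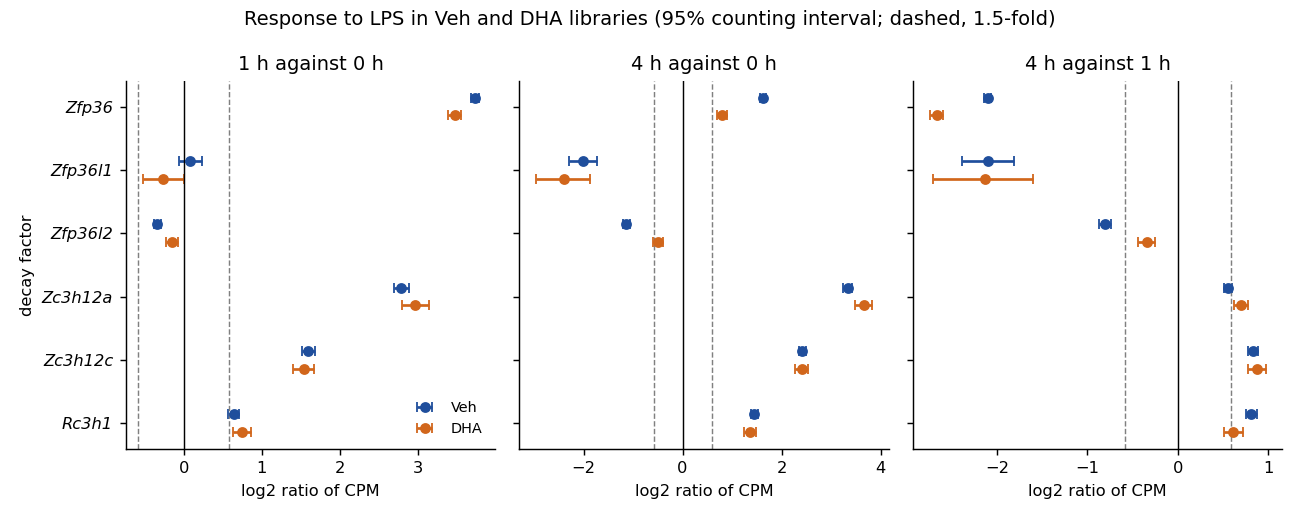
Log2 ratio of CPM (horizontal axis) for each decay factor (vertical axis) at 1 h against 0 h, 4 h against 0 h and 4 h against 1 h of LPS, with Veh in blue and DHA in orange. Bars are exact binomial 95% intervals for counting error and dashed lines mark 1.5-fold. Zfp36 lies far right at 1 h and far left for 4 h against 1 h. In both 4 h panels Veh and DHA separate most for Zfp36 and Zfp36l2 and less for Zc3h12a. For Rc3h1 they also separate in 4 h against 1 h.

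Between 1 h and 4 h the members parted. Of the 5 that passed the share limit in Veh, Zc3h12c (1.77 times) and Rc3h1 (1.76 times) were higher at 4 h, and Zfp36 (0.233 times) and Zfp36l2 (0.572 times) lower. Over all genes 7.98% were higher and 29.3% lower (16.7% and 16.2% with TMM). Zc3h12a was at 1.47 times (1.42 to 1.52), just within the limit, and past it with TMM at a log2 ratio of 0.90. Zfp36l2 was within it with TMM, at -0.46. In DHA, Zc3h12a (1.62 times), Zc3h12c (1.83 times) and Rc3h1 (1.53 times) were higher and Zfp36 (0.157 times) lower, beside 6.97% of all genes higher and 23.3% lower (11.3% and 15.7% with TMM). Zc3h12a and Rc3h1 lost these calls in DHA with SCTransform-corrected counts and over all barcodes, and Rc3h1 also among cells low in proliferation UMIs. Zfp36 ranked 25 of 7847 genes from the lowest ratio in DHA and 174 of 8010 in Veh. Zfp36l1 did not pass the share limit in either treatment.

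Serum reduction came with small differences. Of 6 members, 4 were higher in Veh.LPS.0 than in Con, beside 9.31% of all genes higher and 7.76% lower. These were Zfp36 at 1.61 times (1.53 to 1.69), Zfp36l1 at 1.59 times (1.43 to 1.77), Zc3h12a at 1.54 times (1.41 to 1.69) and Zc3h12c at 1.51 times (1.41 to 1.63). All 4 lie close to the limit. With TMM only Zfp36 and Zfp36l1 passed it, and among cells low in proliferation UMIs none did. Zfp36l1 and Zc3h12a passed the share limit only through Veh.LPS.0, with a UMI in 25.5% and 31.7% of its cells, against 18.1% and 23.6% in Con. With no limit on the share of cells the same 4 were higher. Zfp36l2 stood at 0.956 times (0.929 to 0.984) and Rc3h1 at 0.868 times (0.827 to 0.911).

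DHA was then compared with Veh at each hour. At 0 h none of 6 members differed by more than 1.5-fold, where 1.08% of all genes were higher and 0.949% lower. The ratios ran from 0.865 for Zc3h12a (0.761 to 0.980) to 1.05 for Zfp36 (0.988 to 1.12). At 1 h none of the 5 members that passed the share limit differed, where 1.33% of all genes were higher and 1.73% lower. Zfp36 was at 0.878 times (0.862 to 0.895), Zfp36l2 at 1.14 times (1.09 to 1.20) and the other 3 between 0.944 and 1.04 times. Over all barcodes the direction of Zfp36l2 turned, at a log2 ratio of -0.22, as did that of Rc3h1, at -0.17, and Zfp36 was at -0.55. That setting takes in the barcodes at or over the mitochondrial limit, 74.4% of those in DHA.LPS.1 and 35.8% in Veh.LPS.1. It thus compares unlike mixtures of barcodes, and the part this has in the turned directions was not tested. With SCTransform-corrected counts the directions of Zc3h12a, at 0.06, and Zc3h12c, at 0.02, turned. Zfp36l1, below the share limit, was at 0.757 times (0.648 to 0.883).

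At 4 h, 1 of 5 members was lower with DHA and 1 higher, beside 2.42% of all genes lower and 2.22% higher (3.42% and 1.25% with TMM). Zfp36 was at 0.594 times its level in Veh (0.562 to 0.627), 116 of 7672 genes from the lowest ratio, and its log2 ratio stayed between -1.20 and -0.71 over 8 alternatives of scaling and cell choice. Zfp36l2 was at 1.57 times (1.47 to 1.69), 119 from the highest. Its call was lost with TMM, at a log2 ratio of 0.53, and over all barcodes, at 0.19.

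The Regnase and Roquin genes differed less at 4 h. Zc3h12a was at 1.08 times (1.03 to 1.13), a direction that turned with TMM, with SCTransform-corrected counts and over all barcodes. Zc3h12c was at 0.976 times (0.927 to 1.03) and Rc3h1 at 0.906 times (0.855 to 0.959). Zfp36l1, at 0.737 times (0.485 to 1.09), had too few UMIs for a difference of this size to be detectable. Barcodes left out by the cell filter gave 0.517 times for Zfp36 (0.474 to 0.564) and 1.15 times for Zfp36l2 (1.02 to 1.30). In these barcodes Zc3h12c was at 0.764 times (0.715 to 0.817), Rc3h1 at 0.870, Zc3h12a at 0.890 and Zfp36l1 at 0.580 (0.249 to 1.37). The part that the larger share of left-out barcodes in DHA has in these ratios was not tested.

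**Figure D3:**
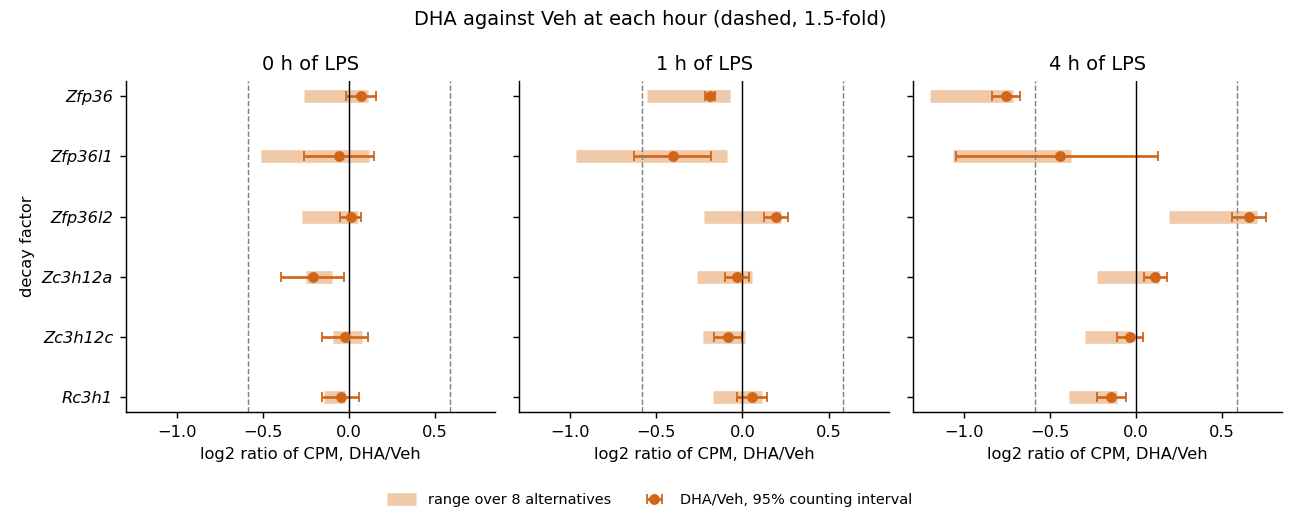
Log2 ratio of CPM in DHA against Veh (horizontal axis) for each decay factor (vertical axis) at 0, 1 and 4 h of LPS. Points are the ratios, lines their 95% counting intervals, pale bars the range over 8 alternatives and dashed lines 1.5-fold. All members lie near 0 at 0 h, and at 4 h Zfp36 lies at -0.75 and Zfp36l2 at 0.65.

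The same values give a difference between the responses to LPS, with intervals from the counting error of the 4 libraries involved. The log2 ratio of 4 h to 0 h for Zfp36 was 0.80 in DHA and 1.62 in Veh, a difference of -0.82 (-0.94 to -0.71). For Zfp36l2 it was -0.50 in DHA and -1.14 in Veh, a difference of 0.64 (0.53 to 0.76). For Zc3h12a the difference was 0.32 (0.13 to 0.51), for Rc3h1 -0.10 (-0.23 to 0.04) and for Zc3h12c -0.01 (-0.17 to 0.14). The Zc3h12a difference depended on the processing. With TMM its log2 ratios were 3.96 in DHA and 3.77 in Veh. Over all barcodes the ratio in DHA was 3.16, below the lowest Veh value of any alternative, 3.20, so the direction turned. At 1 h against 0 h the difference was -0.26 for Zfp36 (-0.35 to -0.17) and 0.18 for Zfp36l2 (0.09 to 0.27). For Zfp36l1, which had few UMIs, it was -0.35 (-0.64 to -0.05) there and -0.38 (-0.97 to 0.21) at 4 h against 0 h. At 4 h against 1 h it was -0.56 for Zfp36 (-0.65 to -0.48) and 0.46 for Zfp36l2 (0.34 to 0.58). It was -0.20 for Rc3h1 (-0.32 to -0.08) and 0.14 for Zc3h12a (0.05 to 0.24).

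Proliferation genes also differed between these libraries. The summed level of 8 of them was 2407 CPM in Con, then 1818, 1797 and 415 CPM along the Veh series and 1335, 1206 and 668 CPM along the DHA series. DHA was thus below Veh at 0 h and 1 h and above it at 4 h, where all 8 genes were called higher (3 with TMM and 1 over all barcodes). Of all genes, 2.22% were called higher there (1.25% with TMM). The log2 ratio at 4 h was also taken among cells with at most 22 proliferation UMIs of 20000. DHA against Veh then gave -0.71 for Zfp36 and 0.60 for Zfp36l2, both past 1.5-fold, the latter narrowly. Most cells met this limit, with 88.6% in Veh and 76.9% in DHA at that hour. The part that proliferation has in the DHA ratios was not tested.

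In single cells, Zfp36 was found in nearly all cells at 1 h. Each cell was thinned to 20000 UMIs so that depth was equal. A Zfp36 UMI was then found in 35.5% of Con cells, in 48.4%, 99.0% and 76.0% of cells along the Veh series and in 46.1%, 98.0% and 62.9% along the DHA series. Unthinned, the 4 h shares were 93.8% in Veh and 73.4% in DHA, libraries that also differ in depth. The mean was 0.789, 10.3 and 2.30 UMIs per cell along the Veh series and 0.784, 9.24 and 1.42 along the DHA series. The quartiles were 6 and 14 UMIs in Veh.LPS.1 and 5 and 13 in DHA.LPS.1, so the 2 distributions overlap widely. At 4 h the thinned mean in DHA was 0.616 times that in Veh for Zfp36 and 1.70 times for Zfp36l2.

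For the other members the thinned shares followed the CPM. Zc3h12a was found in 12.5% of Con cells, in 18.3%, 71.0% and 81.4% along the Veh series and in 14.5%, 68.8% and 84.4% along the DHA series. Zc3h12c went from 27.8% at 0 h to 57.1% and 78.3% in Veh, and Rc3h1 from 41.6% to 57.9% and 76.0%. Zfp36l2 went from 76.2% to 69.0% and 39.3% in Veh, and from 75.5% to 72.5% and 56.2% in DHA. Zfp36l1 was found in 14.6% of cells at 0 h and 3.42% at 4 h in Veh.

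**Figure D4:**
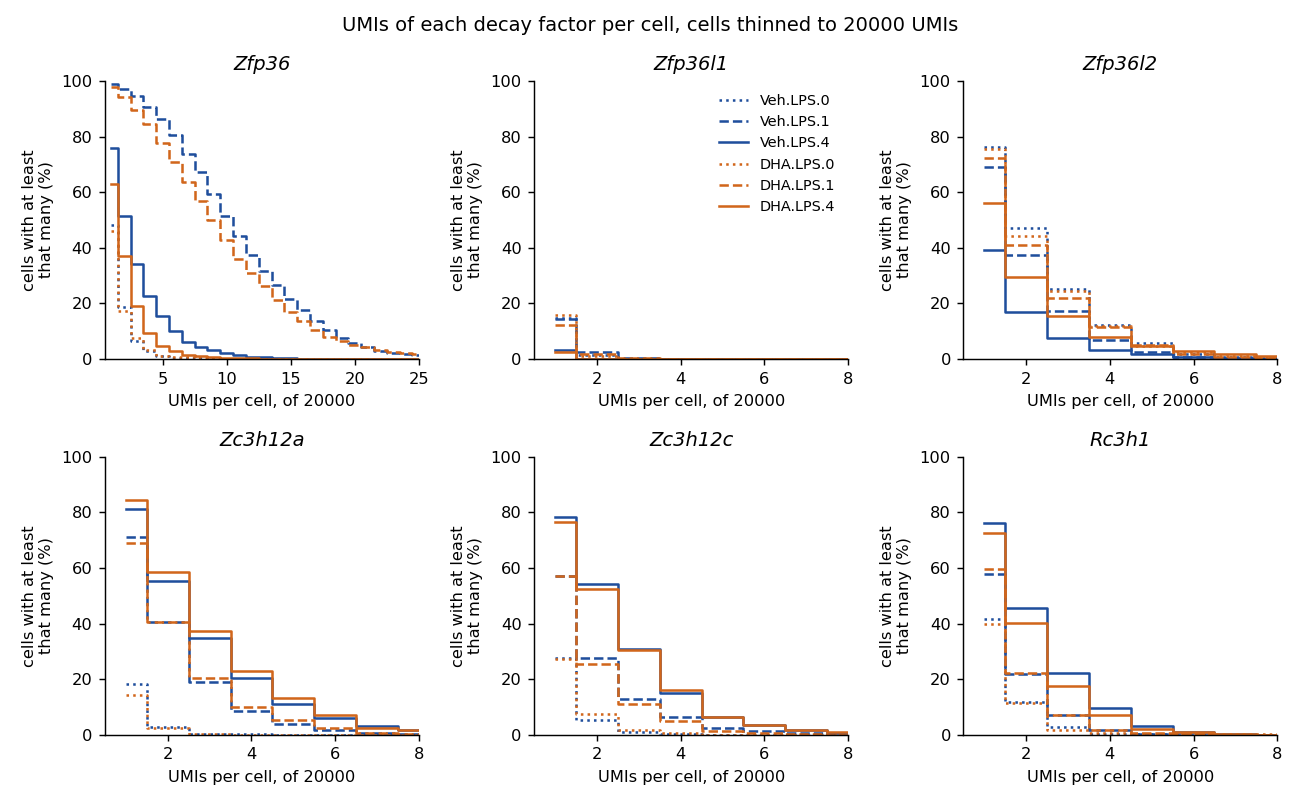
Share of cells in percent (vertical axis) with at least the number of UMIs on the horizontal axis, for each decay factor, in cells thinned to 20000 UMIs. Veh libraries are blue and DHA libraries orange, with dotted lines for 0 h, dashed for 1 h and solid for 4 h. The 1 h curves of Zfp36 lie far to the right of all others, and at 4 h the DHA curve lies below the Veh curve for Zfp36 and above it for Zfp36l2.

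Within a library, correlations between members from cell to cell were low. Pearson's r across thinned cells, over 105 pairs of members and libraries, ran from -0.06 to 0.28 with a median of 0.03. For Zfp36 and Zc3h12a r was 0.15 in Veh.LPS.1 and 0.22 in DHA.LPS.1, and 0.001 in Veh.LPS.4 and -0.02 in DHA.LPS.4. Cells of a library share its preparation, and counts this sparse pull r towards 0. These values are thus descriptions, and a low r does not show that members vary independently. Against mRNAs that decay factors bind, r over the 7 libraries was 0.08 to 0.32 for Zfp36 and Tnf, 0.16 to 0.29 for Zfp36 and Ier3 and 0.05 to 0.27 for Zc3h12a and Nfkbiz. For Zfp36l2 it had the other sign at 4 h, at -0.17 in Veh and -0.15 in DHA with Tnf, -0.16 and -0.18 with Nfkbiz, -0.19 and -0.20 with Cxcl2 and -0.14 and -0.15 with Il1b. Other pairs reached down to about 0. These include Zfp36 with Cxcl2 (0.01 to 0.13), with Nfkbiz (-0.02 to 0.26) and, in the 4 LPS libraries, with Il1b (0.001 to 0.05). Zc3h12a with Il1b lay at -0.001 to 0.17 there, and Zfp36l1 with Tnf at -0.04 to 0.01 over the 7 libraries. Between Zfp36 and the summed proliferation UMIs r was -0.19 to -0.06 over the 7 libraries. For Zfp36l2 it was 0.00 to 0.22, highest in the 4 h libraries at 0.20 in Veh and 0.22 in DHA.

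The genes whose log2(CPM + 1) most resembled each member over the 7 libraries were found by Pearson's r among 8765 candidates. With 7 points that share serum, treatment or hour, a high r marks a like order of the conditions and no more. Nearest to Zfp36 were Dusp8, Ier5 and Junb (r of 0.998, 0.997 and 0.990). Junb, the gene of an AP-1 subunit, had 105, 1427 and 419 CPM along the Veh series and 97.9, 1426 and 265 CPM along the DHA series. Malt1 was among the nearest 3 of both Zc3h12a, with Marcksl1 and Itga5, and Zc3h12c, with Rapgef2 and Sdc4. Nearest to Rc3h1 were Nfkb1, Tlr2 and Mrpl52, to Zfp36l1 B4galt6, Lrrc8b and Eepd1, and to Zfp36l2 Pianp, Tmem126a and Git1. Among the members, r was 0.99 for Zc3h12a and Zc3h12c, 0.93 for Zc3h12c and Rc3h1, 0.41 for Zfp36 and Rc3h1 and -0.89 for Zfp36l2 and Rc3h1.

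Of 17 mRNAs known as targets of these proteins, 7 of the 8 that passed the share limit were higher at 1 h of LPS in Veh and 13 of 13 at 4 h, beside 4.15% and 10.2% of all genes. Cxcl2, Nfkbiz and Nfkbid passed at both hours only through the LPS library. Il1b, Il1a, Il6, Csf2 and Ptgs2 passed at 4 h only through Veh.LPS.4. The limit thus favours a call of higher for these genes, and the counts partly follow from it. Tnf, the first known target of tristetraprolin, had 152, 3799 and 2287 CPM along the Veh series and 143, 3482 and 1864 CPM along the DHA series. Nfkbiz, a target of Regnase-1 that encodes a nuclear IκB protein, had 6.75, 510 and 185 CPM in Veh and 6.65, 411 and 128 CPM in DHA. Ier3, an early response gene, had 165, 3592 and 1309 CPM in Veh and 158, 3326 and 1497 CPM in DHA. Like Zfp36, these 3 and Nfkbid were called lower at 4 h than at 1 h in both treatments. They are 4 of the 13 targets that passed the share limit in Veh and 4 of 12 in DHA. Of all genes, 29.3% were lower in Veh and 23.3% in DHA (16.2% and 15.7% with TMM). By CPM, counts from lists this short are near the shares of all genes. With TMM, Tnf in Veh went from 3657 to 2794 CPM, which is within 1.5-fold.

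Other targets were highest at 4 h. The chemokine gene Cxcl2 had 112, 7543 and 13362 CPM along the Veh series and 235, 7011 and 11764 CPM along the DHA series. Il1b had no UMI in either 0 h library, then 10.6 and 792 CPM at 1 and 4 h in Veh and 3.08 and 485 CPM in DHA. In Veh, 9 of the 13 targets that passed the share limit were higher at 4 h than at 1 h, beside 7.98% of all genes. Of these, Il1b, Il1a, Il6, Csf2 and Ptgs2 passed it only through Veh.LPS.4. At 4 h Zfp36 stood at 23.3% of its highest library in Veh and 13.8% in DHA, and Zc3h12a at 92.5% and 100%.

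**Figure D5:**
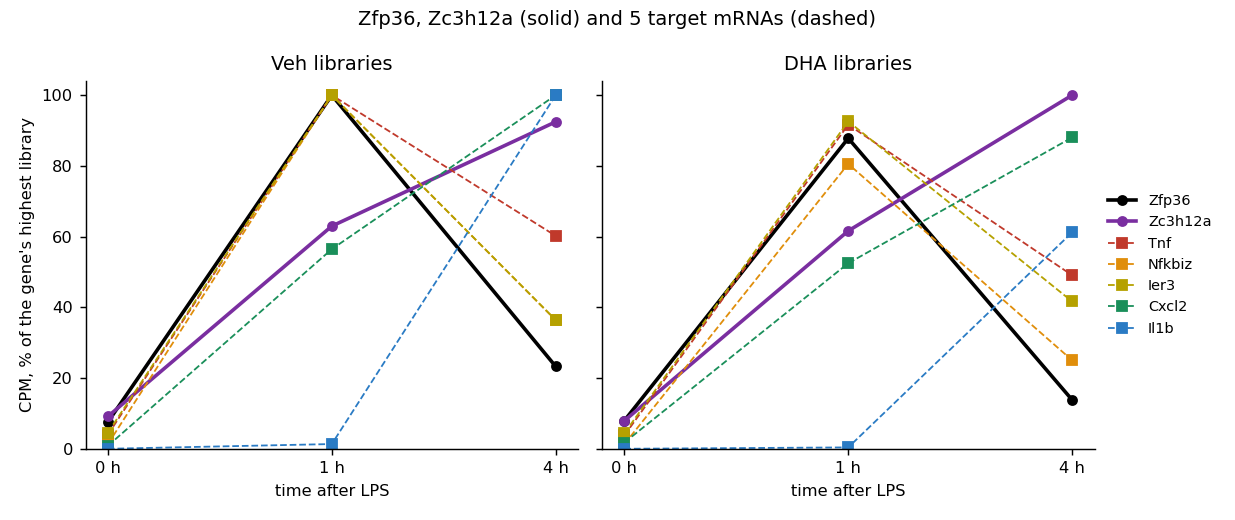
CPM as a percentage of each gene's own highest library (vertical axis) at 0, 1 and 4 h of LPS (horizontal axis, equal steps) in the Veh libraries and in the DHA libraries. Solid lines are Zfp36 and Zc3h12a, and dashed lines are Tnf, Nfkbiz, Ier3, Cxcl2 and Il1b. Tnf, Nfkbiz, Ier3 and Zfp36 are highest at 1 h, whereas Zc3h12a, Cxcl2 and Il1b are highest at 4 h.

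With DHA at 4 h, 3 of the 13 targets that passed the share limit were lower than in Veh and none was higher, beside 2.42% of all genes lower and 2.22% higher (3.42% and 1.25% with TMM, where 4 targets were lower). Il6 was at 0.461 times (0.412 to 0.515), Csf2, the gene of GM-CSF, at 0.476 times (0.442 to 0.512) and Il1b at 0.612 times (0.599 to 0.625). Il6 passed the share limit only through Veh.LPS.4. Over the 14 targets with at least 10 UMIs in both libraries the median log2 ratio was -0.26, against 0.09 over all genes with as many, but over all barcodes it was 0.08. At 0 h, 1 of the 7 targets that passed the share limit was higher with DHA and 1 lower, beside 1.08% and 0.949% of all genes. Cxcl2 was at 2.09 times with DHA (2.03 to 2.15). It passed the limit only through DHA.LPS.0, with a UMI in 37.2% of cells against 24.8% in Veh.LPS.0, which favours a call of higher. Tfrc, the transferrin receptor gene whose mRNA Regnase-1 also cuts, was at 0.595 times (0.563 to 0.628). Transcription and decay of the targets were not measured separately.

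The machinery that decay factors recruit was counted over 39 genes for deadenylation, decapping, decay from the 5′ end and the exosome. At 1 h in Veh, 35 passed the share limit, of which 2 were higher and none lower, beside 4.15% of all genes higher and 4.24% lower. The median log2 ratio was -0.01 against -0.12 over all genes with at least 10 UMIs. The 2 higher genes were Btg1 and Btg2, whose products bind the deadenylase. Btg2 had 19.1, 371 and 37.2 CPM along the Veh series and 18.6, 283 and 22.3 CPM along the DHA series, highest at 1 h like Zfp36. At 4 h in Veh, 3 of 36 were higher (Btg1, Btg2 and the helicase gene Ddx6) and 11 lower, which with TMM became 10 higher and 4 lower. Over all genes 10.2% were higher and 38.3% lower (21.6% and 21.1% with TMM), so the machinery's shares by CPM are near or below those of all genes, and its direction depends on the scaling. Cnot1, the scaffold of CCR4-NOT, was at 0.655 times there (0.624 to 0.687) and at 0.883 times with TMM. Between DHA and Veh, in kept cells, 37 passed the share limit at 0 h and 36 at 1 h, and none was called. Of 35 at 4 h, Btg2 alone was called, at 0.600 times (0.543 to 0.662), with 3 called on the TMM scale. At these hours at most 2.42% of all genes were called per direction (3.42% with TMM), so a list of this size would hold few calls.

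Among 10 related RNA-binding proteins, 8 passed the share limit at 1 h in Veh, of which Arid5a was higher and Tia1 lower. Over all genes 4.15% were higher and 4.24% lower. Between Veh.LPS.0 and Con, 7 of this list passed the limit. Arid5a was scarce without LPS, and for a gene that passes only through Veh.LPS.1 the limit favours a call of higher. Arid5a, whose product protects Il6 mRNA from Regnase-1, had 6.80, 47.6 and 9.42 CPM along the Veh series and 6.05, 29.2 and 6.62 CPM along the DHA series. At 1 h it was at 0.613 times with DHA (0.570 to 0.658), the only gene of this list called between the treatments by CPM, and at 4 h it was at 0.703 times (0.646 times with TMM). Of all genes, 1.73% were lower with DHA at 1 h. Tia1, whose product binds AU-rich elements and represses translation, was at 0.508 times at 1 h in Veh (0.484 to 0.534) and at 0.495 times at 4 h (0.667 times with TMM, just within the limit). Rc3h2, Khsrp, Hnrnpd, Elavl1 and Tial1 were within 1.5-fold at 1 h and 4 h of LPS in both treatments by CPM. With TMM, Rc3h2, the paralog of Rc3h1, was at 1.78 times at 4 h in Veh and 1.63 times in DHA.

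Of 8 genes whose products control the decay factors, directly or upstream, 2 were higher at 1 h in Veh and none lower. Beside them, 4.15% of all genes were higher and 4.24% lower. Dusp1, a phosphatase that switches off p38, had 3.53, 81.8 and 13.7 CPM along the Veh series and 4.05, 105 and 13.7 CPM along the DHA series. It passed the share limit at 1 h only through Veh.LPS.1, with a UMI in 71.2% of cells against 10.1% in Veh.LPS.0. For this gene the limit favours a call of higher, and the count partly follows from it. Malt1, the protease that cleaves Regnase-1 and Roquin-1, had 64.3, 286 and 490 CPM in Veh and 61.6, 260 and 442 CPM in DHA. Btrc, part of the ligase that marks Regnase-1 for degradation, was at 0.518 times at 4 h in Veh, where it lost the call with TMM, and at 0.539 times in DHA. Mapkapk2, a kinase gene downstream of p38, was at 1.05 times at 1 h and 1.42 times at 4 h in Veh (1.91 times with TMM). None of the 8 was called between DHA and Veh at any hour, where at most 2.42% of all genes were called per direction. At 0 h, 7 of the 8 passed the share limit.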

How the data were processed

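Per the file headers, the authors made UMI counts per gene and barcode with Cell Ranger 3.1.0 (build mm10 in the submitters' processing notes; the study's methods name another version), and deposited these counts without normalization. The 3′ kit (v3 chemistry) tags molecules with UMIs, so reads of 1 molecule count once. The study's limits on UMIs, genes and mitochondrial share were applied, and no doublet caller was run. UMIs were summed per library and scaled to CPM. Ratios have exact binomial intervals, levels exact Poisson intervals, and shares of cells exact binomial intervals. Cells were thinned without replacement, with a fixed seed, to 20000 UMIs. The interval code was tested on simulated data. Alternatives were TMM factors (edgeR 4.0.16), SCTransform-corrected counts (sctransform 0.4.2, pseudocount 0.1), other limits on cells and genes, the mean of the cells' own CPM, and cells low in proliferation UMIs. Members, lists and comparisons were chosen with earlier results of these data known. Named genes were the members, the 3 genes most like each, and genes of the lists. Coordinates came from RefSeq, in which all 6 symbols matched. Python 3.11.15 and R 4.3.3 were used.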

Additional observations from a re-analysis of the deposited data

Results flagged for a closer look

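Zc3h12a was below Veh in DHA at 0 h (log2 ratio -0.21) and above it at 4 h (0.11), a gap of 0.3227 between opposite directions that was not tested and rests on 1 library each. The direction at 4 h turned under TMM, with SCTransform-corrected counts and over all barcodes.

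The barcodes left out by the cell filter, which are not among the kept cells, also had higher CPM of most decay factors after LPS than those of Con. After 1 h and then 4 h of LPS, Zfp36 had 301.9 and 58.4 CPM in the left-out barcodes of Veh and 190.1 and 30.2 CPM in those of DHA, against 13.07 CPM in Con. Zc3h12a had 53.77, 75.15, 44.13 and 66.89 CPM in the same order, against 7.776 CPM in Con, and Zc3h12c 52.04, 83.38, 39.97 and 63.68 CPM against 10.68 CPM. Rc3h1 had 39.24 and 52.42 CPM in the left-out barcodes of Veh and 30.9 and 45.6 CPM in those of DHA, against 22.22 CPM in Con. Zfp36l1 went both ways, with 4.216 CPM at 1 h in Veh against 1.623 CPM in Con, but 1.36 CPM at 1 h in DHA, 0.691 CPM at 4 h in Veh and 0.401 CPM at 4 h in DHA. It was already at 3.03 CPM in Veh and 2.22 CPM in DHA without LPS. Zfp36l2 was below its 49.9 CPM in Con after LPS, with 44.9 and 23.4 CPM in Veh and 29.9 and 26.9 CPM in DHA. Without LPS, Zfp36l2 was at 51.2 CPM in Veh and 44.1 CPM in DHA. Con differs from the LPS libraries in serum, BSA and time as well. In the left-out barcodes of Veh and DHA without LPS, Zfp36 was at 20.7 and 18.4 CPM and Zc3h12a at 10.8 and 10.1 CPM. Zc3h12c was at 14.9 and 14.8 CPM there, and Rc3h1 at 22.3 and 22.2 CPM.

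As a ratio of left-out to kept barcodes of the same library, Zfp36 lay at 0.424 to 0.591 in all 7 libraries and Zc3h12c at 0.693 to 0.980. At 1 h of LPS, DHA against Veh gave 0.630 times for Zfp36 in left-out barcodes (0.607 to 0.653) and 0.878 times in kept cells. Every other member was also lower there with DHA. Zfp36l1 was at 0.324 times, Zfp36l2 at 0.666, Zc3h12c at 0.768, Rc3h1 at 0.786 and Zc3h12a at 0.821. No share over all genes is given for left-out barcodes, so these ratios have no background beside them.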

How the results depend on the processing

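With 1 library per condition, leaving out a replicate was not possible. No paired analysis was possible because each condition has 1 library and the labels give no replicate numbers. Of the 4 members higher with serum reduction, 2 passed with TMM, 1 with SCTransform-corrected counts, 1 with a share limit of 50%, 0 among cells low in proliferation UMIs and 0 with a 2-fold limit. For 4 h against 1 h, a 2-fold limit left 1 of 4 calls in Veh and 1 of 4 in DHA, and in DHA SCTransform-corrected counts and all barcodes each left 2. For DHA at 4 h, TMM and all barcodes each left 1 of 2 calls, Zfp36, and a 2-fold limit left 0. The other 98 of 110 counts of members stayed within 1.5 times, and no count of members reversed. Counts of called genes in the other gene lists were less steady, with 35 that moved and 105 that did not. Of 33 calls of a member in a comparison, 24 held under all 8 alternatives of scaling and cell choice and all 33 kept their sign, while 2 more were past the limit only under an alternative. Beyond a member's own counting interval, 116 log2 ratios moved and 364 did not. Depth limits Zfp36l1 most, with 33 UMIs in DHA.LPS.4. The causes of these moves were not tested.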

Other observations

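Il6, which Regnase-1 cuts, was below the limit on the share of cells at 0 h and 1 h and had few UMIs there. It had 0.192 CPM in Veh.LPS.0 (19 UMIs) and 1.88 CPM in DHA.LPS.0 (66 UMIs), a ratio of 9.79 (5.81 to 17.3). At 1 h it had 0.994 CPM in Veh and 6.10 CPM in DHA, a ratio of 6.13 (4.77 to 7.93), and at 4 h 36.6 CPM in Veh and 16.9 CPM in DHA. The UMIs at 0 h came from 14 of 2481 cells in Veh and 25 of 698 cells in DHA.

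The highest r between members across cells, 0.28 for Zfp36l2 and Rc3h1 in DHA.LPS.0, rests on 1 cell. That cell held 45 Zfp36l2 UMIs and 9 Rc3h1 UMIs of 20000, where the next cell held 13 Zfp36l2 UMIs. Without it r over the remaining cells was 0.00024, and the mean of Zfp36l2 was 1.65 in place of 1.71 UMIs per cell.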
